A study of Mus musculus with 30 samples.

Results

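The loss of Myc was examined in small-intestinal crypts that also lost Rb, by comparing the 5 arrays titled Rb/Myc DKO crypts with the 5 titled Rb KO crypts, 10 of 30 arrays in the series. Members were taken from the array titles alone, and all 14548 genes that passed a filter on low values were compared. All animals were mice 2 months old. In the Rb KO group Rb was deleted, and in the double knockout (DKO) group Rb and Myc were deleted together, with Ah-cre, an inducible Cre that the labels call specific to the intestine. Tissue was taken 5 days later. The 5 control crypt arrays entered the fit only through the estimate of the spread. The labels do not state the alleles carried by controls, the strain, the inducer or the sex, nor that replicates were separate animals, so the p-values describe only the spread of these samples, which may be technical. The other 15 arrays, of villi, entered no comparison here.

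Crypts are the pockets at the base of the villi in which stem cells and their dividing progeny renew the intestinal epithelium, and they also hold Paneth cells, which release antimicrobial proteins. The retinoblastoma protein, the product of Rb1, binds E2F transcription factors and holds back the genes of DNA synthesis. Myc pairs with Max, binds the DNA sequence CACGTG known as the E-box, and is best known for raising the genes of ribosome production, translation and nucleotide synthesis, while proteins of the Mxd family compete for Max.

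Levels are log2 expression values, a difference is DKO minus Rb KO on the log2 scale ± SE, and a gene counts as risen or fallen where its limma p, adjusted by Benjamini and Hochberg over all genes tested, was below 0.05 (two-sided). Pairs of arrays correlated at 0.993 to 0.997 within Rb KO, 0.990 to 0.994 within DKO and 0.984 to 0.990 between the groups. The number of arrays limits the precision. Markers of the crypt were high on all 10 arrays, with Olfm4 at 13.66 to 14.12 and the Paneth cell gene Lyz1 at 14.92 to 15.12, close to the highest crypt value of 15.21. Markers of villus enterocytes were also high, with Fabp1 at 14.49 to 14.82 and Alpi at 13.89 to 14.30, so the crypt preparations held enterocyte transcripts too. Rb KO arrays 4 and 5 stood apart. Their clock index, the mean of 4 clock genes minus that of 5 genes of the opposite phase, was −1.91 and −1.88, against −0.61 to 1.14 on the other 13 crypt arrays. They also had the lowest crypt marker scores, −0.38 and −0.33, where a score is the mean of 9 crypt markers centred over the crypt arrays. The 9 include Lgr5, Olfm4 and Slc12a2 and the Paneth cell genes Lyz1, Ang4 and Itln1. The score ran from −0.38 to 0.02 in Rb KO against −0.07 to 0.30 in DKO. Many results that rest on these arrays or move with this score are given with the altered values, but not all. In whole tissue, fewer cells of a type and less RNA per cell cannot be told apart.

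Crypts without Rb and Myc differed from crypts without Rb alone in 1802 of 14548 genes, or 12.4%. Of these, 752 were higher (5.17%) and 1050 lower (7.22%), and 35 rose and 27 fell at least 2-fold. The median size of the difference among the called genes was 0.32. The median over all genes was 0.01, and 47.8% of all genes lay below 0. The split of the calls depended on the scaling. Of the called genes 41.7% were higher in DKO, against 53.3% after each array was centred on its median and 48.8% after quantile normalization. Without Rb KO 4 and 5 together the count was 1135, with 436 higher and 699 lower. The values of 1699 genes (11.7%) did not overlap between the 5 and 5 arrays, 987 of them lower in DKO (6.78%) and 712 higher (4.89%).

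Myc itself was at 10.60, 11.04, 10.56, 10.21 and 9.98 on Rb KO arrays 1 to 5 and at 8.92, 8.67, 9.01, 8.90 and 8.88 on DKO arrays 1 to 5. Every DKO array lay below every Rb KO array, and the 5 DKO arrays were closer to each other than the 5 Rb KO arrays. The difference was −1.60 ± 0.16, a level 3.04-fold lower (limma adjusted p = 1.87e-05). Rb1 differed by 0.06 ± 0.18 (adjusted p = 0.877, 95% interval −0.33 to 0.45), and its 2 probe sets differed in sign. The position of the probes of both genes relative to the deleted exons was not determined, and the remaining signal is no measure of the transcript left.

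Of 13 genes of the Myc and Max network, 2 fell (15.4%, against 7.22% of all genes) and none rose (against 5.17%), with a median difference of −0.10. The 2 include Myc, the deleted gene, and the count is too small to set the list apart from all genes. Beside Myc the gene that fell was Mxi1, which encodes a competitor of Myc for Max. It was at 9.40, 9.17, 9.48, 9.21 and 9.52 in Rb KO and 8.85, 9.24, 8.89, 8.71 and 8.53 in DKO, so that 1 DKO array, the second, lay within the Rb KO values (−0.51 ± 0.14, adjusted p = 0.0233). The call was lost without Rb KO 1, 3 or 5 or DKO 4 or 5, left out singly (adjusted p 0.0515 to 0.0579), without Rb KO 4 and 5 together (0.0783) and with the crypt marker score in the model (adjusted p = 0.304). Max, the shared partner, was at 9.00, 9.06, 9.39, 8.88 and 9.53 in Rb KO and 8.86, 8.85, 8.82, 8.12 and 8.20 in DKO. No values overlapped, but the difference of −0.60 ± 0.20 missed the threshold (adjusted p = 0.0565), and it passed without control 4 (0.0474) or control 5 (0.0368). With the crypt marker score in the model the Max difference was −0.22 (adjusted p = 0.543). The relatives Mycl (0.23, 95% interval −0.02 to 0.48, adjusted p = 0.229) and Mycn (0.04, −0.07 to 0.16, adjusted p = 0.661) did not pass.

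**Figure D1:**
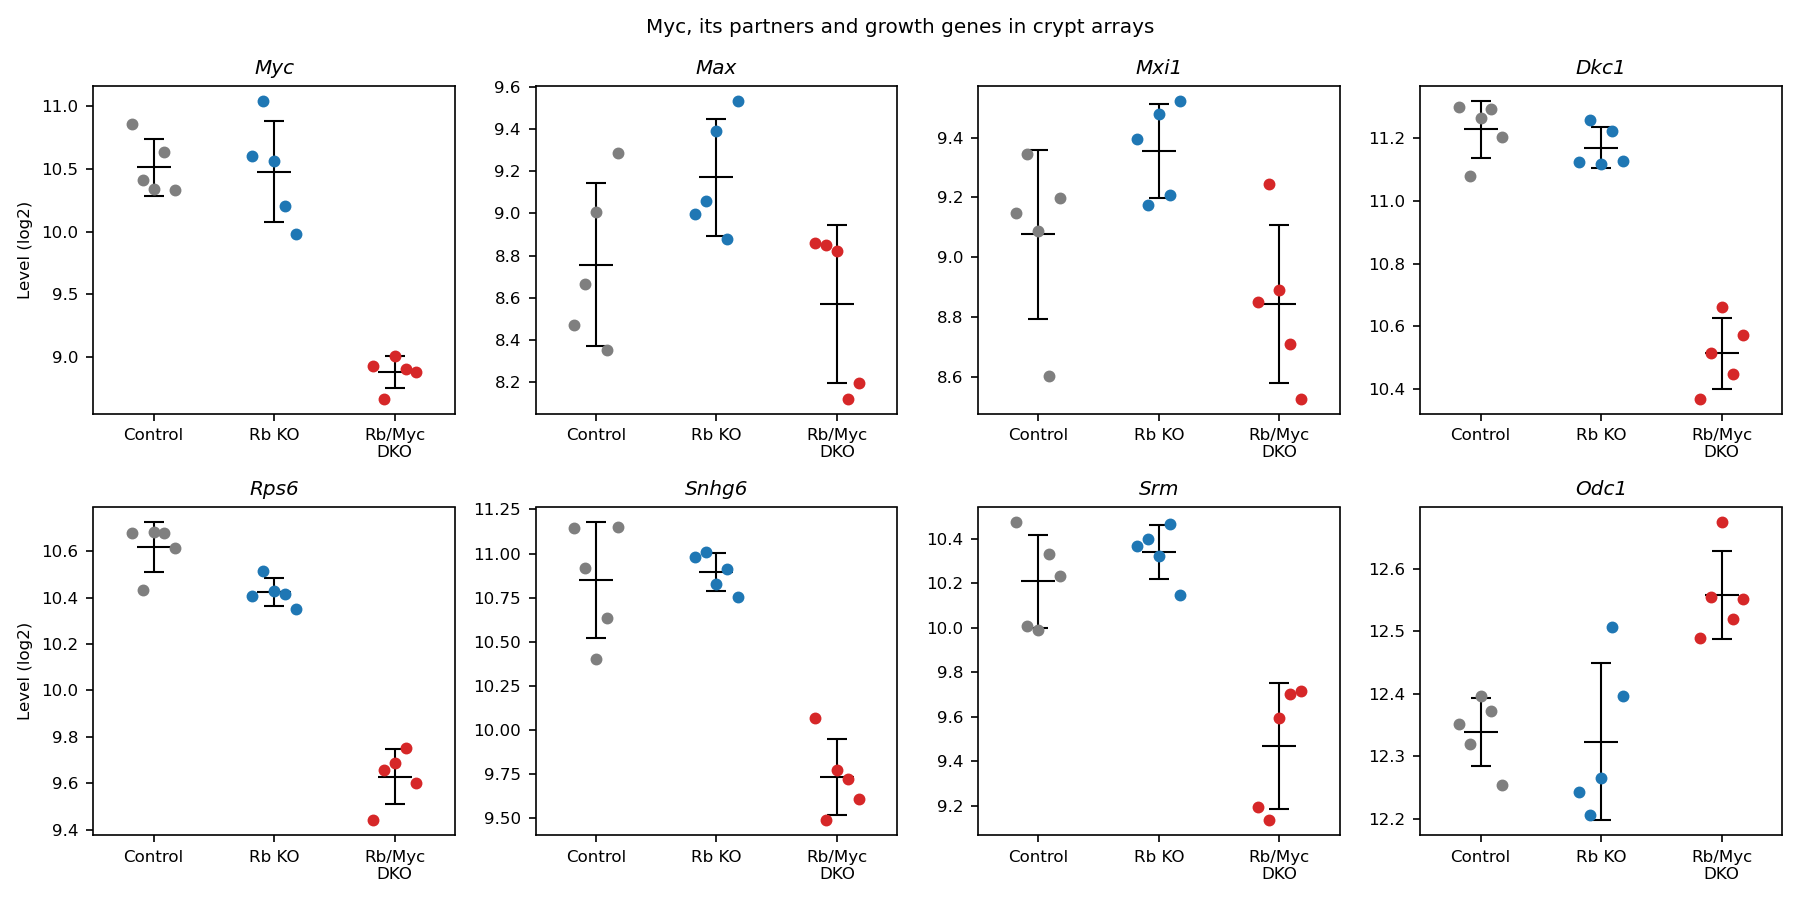
Log2 levels on each crypt array (points), with group mean and SD (bars, n = 5), in control, Rb KO and Rb/Myc DKO crypts. The axes do not start at 0. Myc, Dkc1, Rps6, Snhg6 and Srm lay lower on all 5 DKO arrays than on all 5 Rb KO arrays, Max did so without passing the test, Mxi1 overlapped, and Odc1 was higher in DKO with an overlap.

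The genes that build ribosomes fell in DKO crypts. Across 13 lists of growth genes, which cover ribosome production, translation, protein folding, nuclear transport and the synthesis of nucleotides and polyamines, 144 of 302 genes fell (47.7%, against 7.22% of all genes) and 5 rose (1.66%, against 5.17%). The median difference was −0.185 against 0.01 over all genes, and 266 of the 302 lay below 0. The largest list, ribosome biogenesis factors, had 43 of 56 members lower and none higher, with a median of −0.30. Its score, the mean of its members with the control mean set to 0, ran from −0.05 to 0.15 in Rb KO against −0.40 to −0.20 in DKO, without overlap.

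Dkc1, the dyskerin pseudouridine synthase of the nucleolus, was at 11.12, 11.26, 11.12, 11.22 and 11.13 in Rb KO and 10.37, 10.51, 10.66, 10.45 and 10.57 in DKO. All 5 DKO arrays lay below the lowest Rb KO array. The difference was −0.65 ± 0.06, a level 1.57-fold lower (adjusted p = 1.02e-05). Gnl3, the nucleolar GTPase nucleostemin, fell by 0.77 ± 0.08, from 10.44 to 10.64 in Rb KO to 9.57 to 9.88 in DKO (adjusted p = 2.43e-05). Rrs1, of large subunit assembly, fell by 0.66 ± 0.07, and Utp4, of the small subunit processome, by 0.44 ± 0.05. The controls of Dkc1 (11.08 to 11.30) and Gnl3 (10.27 to 10.71) lay in the range of Rb KO or around it.

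RNA polymerases I and III, which transcribe ribosomal and transfer RNA, had 8 of 22 subunit and factor genes lower and 1 higher (median −0.16). Polr1b, the second largest subunit of polymerase I, was at 9.54, 9.55, 9.45, 9.47 and 9.40 in Rb KO and 8.72, 8.73, 8.73, 8.84 and 8.97 in DKO (−0.68 ± 0.07, adjusted p = 2.5e-05). All DKO arrays lay lower. Polr1d, shared by both polymerases, fell by 0.38 ± 0.05 and Polr3g, of polymerase III, by 0.49 ± 0.07.

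Host transcripts of small nucleolar RNAs, whose introns carry the guides for ribosomal RNA modification, showed the largest shift of the 13 lists, with 8 of 10 lower and a median of −0.64. Snhg6 was at 10.98, 11.01, 10.83, 10.91 and 10.75 in Rb KO and 10.07, 9.49, 9.77, 9.72 and 9.61 in DKO. The lowest Rb KO array lay above the highest DKO array, and the level was 2.24-fold lower (−1.16 ± 0.13, adjusted p = 6.07e-05). Snhg4 fell by 1.36 ± 0.16 (adjusted p = 7.6e-05), with DKO arrays at 8.53, 8.72, 8.86, 8.94 and 9.41, all below the Rb KO arrays. Both thus lost more than 2-fold. Gas5 fell by 0.85 ± 0.10 and Snhg8 by 0.66 ± 0.09.

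Cytosolic ribosomal protein genes were lower in 28 of 32 cases (median −0.25), and all 32 differences were below 0. Their score ran from −0.13 to −0.04 in Rb KO against −0.45 to −0.30 in DKO. Rps6, the small subunit protein phosphorylated by S6 kinase, was at 10.41, 10.52, 10.43, 10.42 and 10.35 in Rb KO and 9.44, 9.66, 9.69, 9.75 and 9.60 in DKO (−0.80 ± 0.06, adjusted p = 3.01e-06). No array of either group came near the other. Rpl14 fell by 0.66 ± 0.06 (adjusted p = 5.2e-06) and Rps19 by 0.42 ± 0.05. Rps4x fell by 0.44 ± 0.05, with its 2 probe sets in opposite directions. Ribosomal protein genes have many near-identical pseudogenes, which probe sets may not tell apart.

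These counts were smaller when the spread was estimated over all 30 arrays. Ribosome biogenesis then had 16 members lower, ribosomal proteins 4, translation factors 5, nuclear transport 3, and mitochondrial ribosomal proteins, aminoacyl-tRNA synthetases and chaperonins 1 each. Among the genes named here Rpl14, Rps19, Eif3f, Iars, Kars, Ipo7, Mrps30, Mrpl50, Timm9, Gart and Dhodh lost the call in that fit, at adjusted p from 0.0552 to 0.235.

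Translation factors had 12 of 30 members lower and none higher (median −0.15). Eef1b2, of elongation factor 1, was at 13.78, 13.78, 13.72, 13.62 and 13.72 in Rb KO and 13.08, 12.95, 13.05, 13.25 and 13.20 in DKO (−0.62 ± 0.06, adjusted p = 2.5e-05). The groups were fully apart. Eif1a, of start codon scanning, fell by 0.58 ± 0.06, Eif4b, a helicase cofactor, by 0.58 ± 0.07 and Eif3f, of initiation factor 3, by 0.36 ± 0.05. Aminoacyl-tRNA synthetases, which charge transfer RNAs, had 6 of 24 lower (median −0.12), and 2 or 3 without Rb KO 1 or 4 or DKO 1, 2 or 5. Iars fell by 0.36 ± 0.07 and Kars by 0.21 ± 0.05.

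Chaperonin and mitochondrial chaperone genes were lower in 9 of 14 cases (median −0.18). That count was 4 or 5 without Rb KO 4 or DKO 1 or 5, 3 without Rb KO 4 and 5 together, 3 with the crypt marker score, 4 with the clock index as a covariate and 5 after median centring. Cct5, a subunit of the CCT ring that folds actin and tubulin, fell by 0.38 ± 0.06 (adjusted p = 0.000809). Nuclear transport had 6 of 26 lower (median −0.05). Ipo4 fell by 0.62 ± 0.07, from 9.70 to 9.91 in Rb KO to 9.08 to 9.33 in DKO, and Ipo7 by 0.30 ± 0.05. Both encode importins.

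Some genes of mitochondrial ribosomes and protein import fell. Mitochondrial ribosomal proteins had 11 of 37 members lower (median −0.14), 6 when the crypt marker score was a covariate, among them Mrps30 (−0.32 ± 0.06) and Mrpl50 (−0.29 ± 0.06). Import and biogenesis genes had 8 of 24 lower and 1 higher (median −0.11). The receptor gene Tomm20 fell by 0.33 ± 0.06 and the carrier chaperone gene Timm9 by 0.37 ± 0.06. Of 41 oxidative phosphorylation genes none fell and 1 rose, with a median of 0.07 and 35 above 0. The gene that rose, Cox8a of cytochrome c oxidase, differed by 0.16 ± 0.04 (adjusted p = 0.0199) and lost the call without Rb KO 3 (0.0504) or DKO 2 (0.0551) and without Rb KO 4 and 5 (0.0589). After quantile normalization 8 of the 41 were higher, and with the crypt marker score 7.

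Enzymes that make nucleotides fell in part. Purine synthesis had 4 of 13 lower (median −0.12) and pyrimidine synthesis 5 of 15 lower and 1 higher (median −0.15). Dctd, deoxycytidylate deaminase, was at 8.16, 8.13, 8.23, 8.49 and 8.15 in Rb KO and 6.93, 6.77, 7.11, 7.35 and 7.41 in DKO. Every DKO array was lower, and the level was 2.17-fold lower (−1.12 ± 0.12, adjusted p = 4.51e-05). Cad, which starts pyrimidine synthesis, was at 9.01, 8.96, 8.93, 8.99 and 8.86 in Rb KO and 8.14, 8.10, 8.22, 8.50 and 8.73 in DKO (−0.61 ± 0.11, adjusted p = 0.00152). DKO arrays 4 and 5 were the nearest to Rb KO in both genes. Dhodh, a later enzyme of the pathway, fell by 0.40 ± 0.07. Ppat, the first committed enzyme of purine synthesis, fell by 0.68 ± 0.09, with 1 of 3 probe sets in the other direction, Atic, the last, by 0.62 ± 0.06 and Gart by 0.41 ± 0.08.

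Folate one-carbon enzymes had 3 of 14 lower (median −0.15), including the mitochondrial folate carrier Slc25a32 (−0.51 ± 0.07) and Mthfd1 (−0.49 ± 0.07). Polyamine genes had 1 of 10 lower and 3 higher (median 0.08). Srm, spermidine synthase, was at 10.37, 10.40, 10.32, 10.46 and 10.15 in Rb KO and 9.19, 9.14, 9.59, 9.70 and 9.71 in DKO, without overlap (−0.87 ± 0.12, adjusted p = 0.000304). Odc1, the ornithine decarboxylase that is a classical Myc target, differed the other way, at 12.24, 12.21, 12.27, 12.51 and 12.40 in Rb KO and 12.49, 12.55, 12.67, 12.52 and 12.55 in DKO (0.23 ± 0.06, adjusted p = 0.018). Rb KO 4 lay within the DKO values, and the call was lost without Rb KO 2 (0.0511) and in the fit over all 30 arrays (0.154). Azin1 and Oaz2, regulators of the decarboxylase, rose by 0.25 ± 0.07 and 0.25 ± 0.05. The Azin1 call was lost without Rb KO 1, 2 or 3 or DKO 3 (0.0502 to 0.0608), and without Rb KO 2 the list had 1 member higher.

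**Figure D2:**
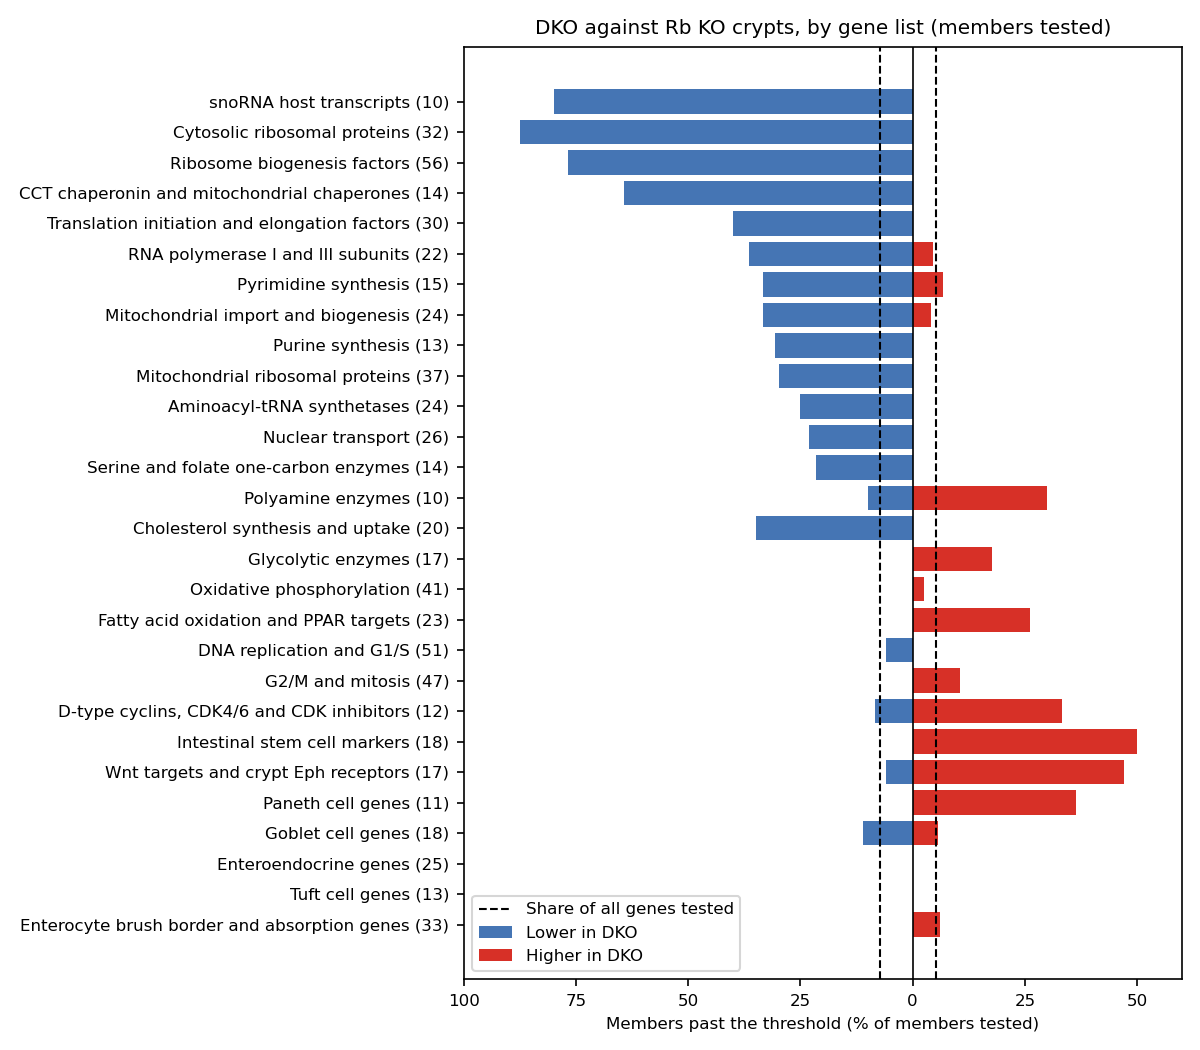
Share of the tested members of 28 lists that were lower (left, blue) or higher (right, red) in DKO than in Rb KO crypts at an adjusted limma p below 0.05, with the number of members tested in brackets. Dashed lines mark the share of all genes, 7.22% lower and 5.17% higher. Ribosomal proteins, host transcripts of small nucleolar RNAs and ribosome biogenesis had 76.8% or more of their members lower, and of the lists drawn, those of stem cells, Wnt targets and Paneth cells had the largest shares higher.

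The E-box was then looked for in the 250 bases before the gene start, in promoter sequences from RefSeq on GRCm38.p6. The letters CACGTG, which read the same on both strands, were present in 8.04% of 11660 tested genes with a promoter sequence, 10.4% of those that fell, 7.72% of those that rose and 7.85% of those not called. Among members of the growth lists that fell, 15 of 125 held it (12%). A match describes the letters in this window only. The sequences below are shown because they belong to growth genes that fell and hold the letters, of a ribosomal protein, a purine enzyme, a nucleolar methyltransferase and an initiation factor. The capitals mark CACGTG. Nop2, which encodes the methyltransferase, was chosen with its values known and fell by 0.53 ± 0.07 (adjusted p = 0.000278). The windows are Rpl14 at chr9:120571267-120571516, Atic at chr1:71556906-71557155, Nop2 at chr6:125131633-125131882 and Eif3f at chr7:108934165-108934414, all on the plus strand and written 5′ to 3′.
Rpl14: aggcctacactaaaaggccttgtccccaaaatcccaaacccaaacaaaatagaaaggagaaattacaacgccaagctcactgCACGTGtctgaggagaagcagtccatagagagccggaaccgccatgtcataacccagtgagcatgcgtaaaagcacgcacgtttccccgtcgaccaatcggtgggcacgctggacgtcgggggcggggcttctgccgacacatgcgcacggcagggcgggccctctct
Atic: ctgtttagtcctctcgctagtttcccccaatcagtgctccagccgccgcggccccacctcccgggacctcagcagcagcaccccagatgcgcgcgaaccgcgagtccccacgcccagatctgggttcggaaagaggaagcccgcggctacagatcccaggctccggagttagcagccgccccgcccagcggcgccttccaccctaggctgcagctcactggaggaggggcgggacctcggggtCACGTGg
Nop2: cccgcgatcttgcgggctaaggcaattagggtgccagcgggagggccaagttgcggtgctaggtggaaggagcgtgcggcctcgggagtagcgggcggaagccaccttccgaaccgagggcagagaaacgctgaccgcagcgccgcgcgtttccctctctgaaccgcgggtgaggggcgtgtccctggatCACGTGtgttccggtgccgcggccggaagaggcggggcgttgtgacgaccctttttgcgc
Eif3f: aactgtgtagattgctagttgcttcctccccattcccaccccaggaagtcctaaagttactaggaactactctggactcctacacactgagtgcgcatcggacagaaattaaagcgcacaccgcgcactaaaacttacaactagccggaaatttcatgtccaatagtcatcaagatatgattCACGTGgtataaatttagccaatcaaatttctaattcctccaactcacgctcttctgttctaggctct
The motif began 168 bases before the start in Rpl14, 7 in Atic, 60 in Nop2 and 68 in Eif3f.

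DNA replication genes passed the test in few cases. Of 51 replication and G1/S genes 3 were lower in DKO (5.88%, against 7.22% of all genes) and none higher, with a median of 0.01. After quantile normalization or median centring 2 were higher and 2 lower, and 1 or 2 were higher without control 2 or 3, Rb KO 4 or DKO 1 or 2. The score of the list, with control at 0, spanned 0.44 to 0.57 on Rb KO arrays and 0.43 to 0.54 on DKO arrays, and both groups overlapped and lay above every control array (−0.17 to 0.06). The members that fell were Pold3, of DNA polymerase delta (−0.34 ± 0.07), the cyclin gene Ccne2 (−0.45 ± 0.13) and the helicase subunit gene Mcm6 (−0.21 ± 0.07, adjusted p = 0.0494). Ccne2 was at 9.59, 9.62, 9.74, 9.50 and 9.74 in Rb KO and 9.41, 9.66, 9.12, 8.90 and 8.83 in DKO, with DKO 2 inside the Rb KO values. The list had 1 lower member without Rb KO 2 or 3 or DKO 3, 4 or 5, and 1 without Rb KO 4 and 5. Mcm6 lost its call in 11 of 15 removals of a single array (up to 0.114) and Ccne2 in 6 (up to 0.0701). Both also lost it without Rb KO 4 and 5 (0.119 and 0.084) and with the crypt marker score (0.142 and 0.211). In the fit over all 30 arrays none of the 51 passed.

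G2/M and mitosis genes had 5 of 47 higher (10.6%) and none lower, with a median of 0.12 and 41 above 0, including the cyclin gene Ccnb2 (0.31 ± 0.08) and the condensin genes Ncapd2 (0.37 ± 0.10) and Ncaph (0.24 ± 0.07). The list's score overlapped between Rb KO (0.24 to 0.44) and DKO (0.22 to 0.58). The count ran from 1 to 9 over removals of a single array, moving by over 1.5 times without Rb KO 1, 2, 3 or 5 or any DKO array. It was 3 without Rb KO 4 and 5, 7 after quantile normalization, 8 after median centring, and none of the 47 passed with the crypt marker score or in the fit over all 30 arrays. Of 19 E2F and pocket protein genes 2 rose (10.5%, against 5.17% of all genes), and 1 in 9 of 15 removals of a single array (control 2 or 3, Rb KO 1, 2, 4 or 5 or DKO 2, 4 or 5). Rbl1, which encodes p107, a relative of the retinoblastoma protein, was at 10.23, 10.27, 10.31, 10.31 and 10.27 in Rb KO and 10.42, 10.54, 10.53, 10.41 and 10.56 in DKO (0.21 ± 0.05, adjusted p = 0.00565), against 9.68 to 9.81 in control. Of its 4 probe sets 3 had this sign.

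**Figure D3:**
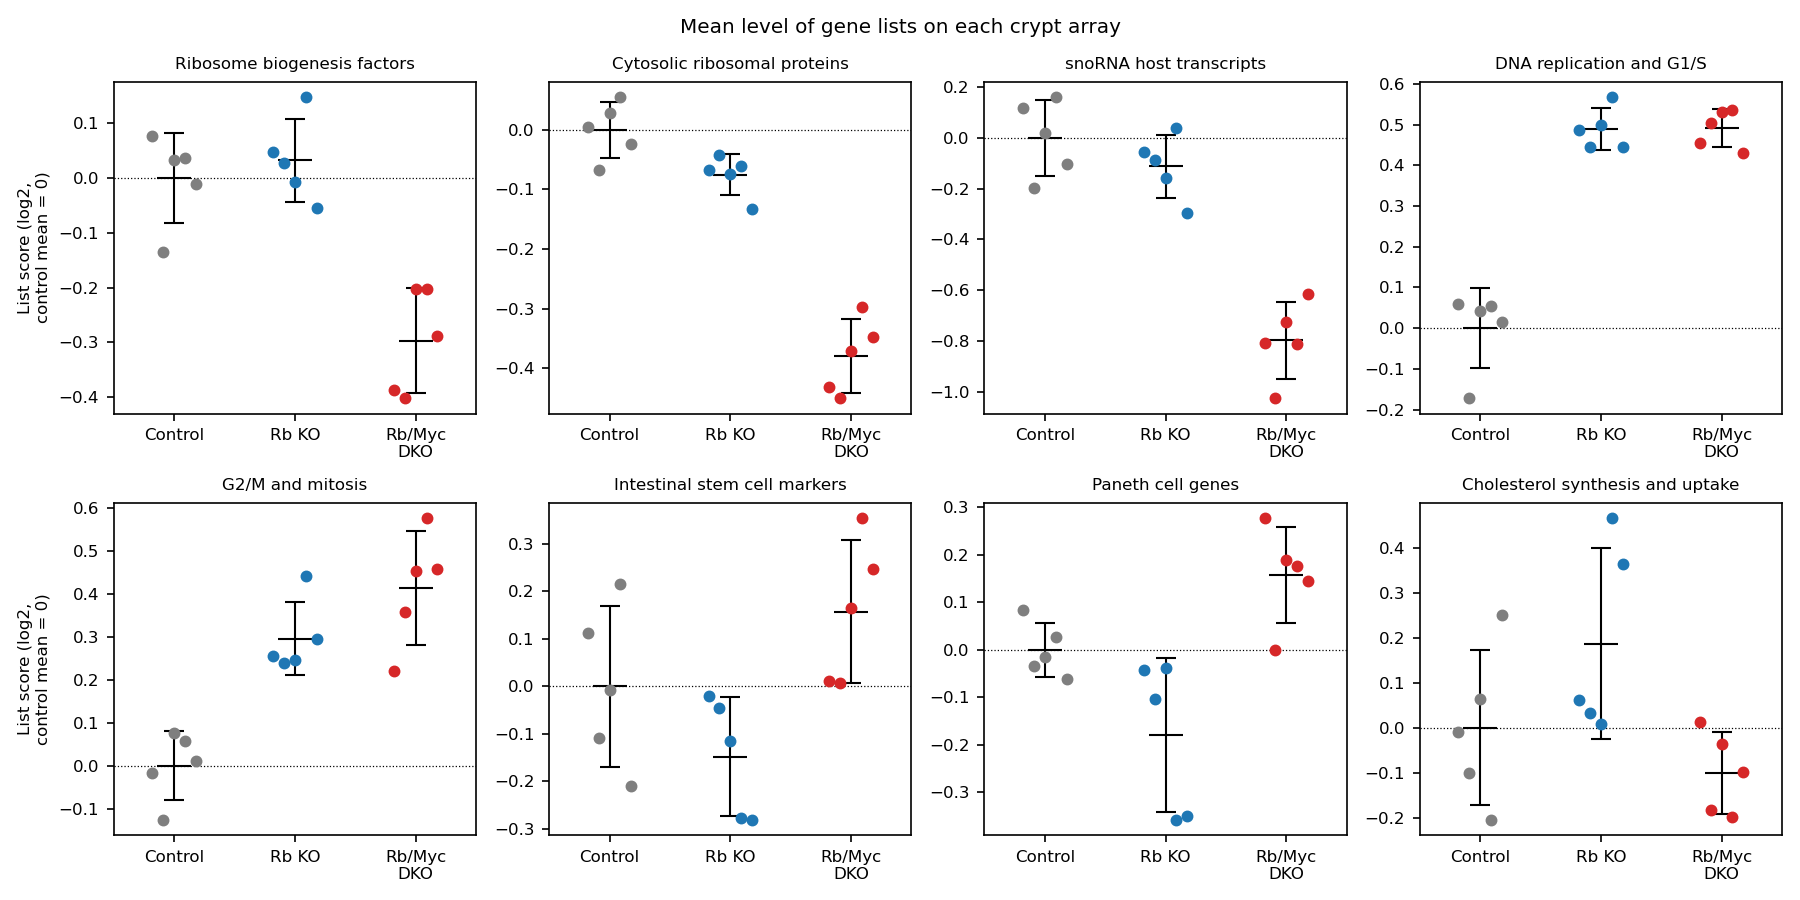
Mean level of each list's members on each crypt array (points), with the control mean set to 0, and group mean and SD (bars, n = 5). Ribosome biogenesis, cytosolic ribosomal protein and small nucleolar RNA host scores were lower in DKO without overlap with Rb KO, the DNA replication score was at 0.43 to 0.57 in both, and Rb KO arrays 4 and 5 (the 2 rightmost blue points) were low for stem and Paneth genes and high for cholesterol synthesis.

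The D-type cyclins moved in opposite directions. Ccnd2 was at 11.40, 11.80, 11.22, 11.41 and 11.09 in Rb KO and 13.00, 13.00, 13.33, 13.67 and 13.35 in DKO. The lowest DKO array lay well above the highest Rb KO array and above every control array (12.01 to 12.40), and the level was 3.69-fold higher (1.88 ± 0.14, adjusted p = 2.12e-06), with all 7 probe sets in this direction. Ccnd1 was at 9.80, 9.45, 9.92, 9.95 and 9.77 in Rb KO and 8.74, 8.60, 8.93, 8.87 and 9.16 in DKO. It was 1.89-fold lower without overlap (−0.92 ± 0.12, adjusted p = 0.000124), and control arrays lay higher still (9.99 to 10.43). Cdk6, a kinase partner of these cyclins, differed by 0.52 ± 0.14 (adjusted p = 0.0217) and lost the call without DKO 4 (0.055) or DKO 5 (0.0541), without Rb KO 4 and 5 (0.112), with the crypt marker score (0.367) and in the fit over all 30 arrays (0.0569). In all, 4 of 12 genes of D-type cyclins, their kinases and CDK inhibitors rose and 1 fell, and with the crypt marker score 2 rose and 1 fell. The inhibitor gene Cdkn1b, taken up below, was among those that rose.

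Genes of cell death fell in few cases. Of 17 genes of p53 and its targets 1 was lower (5.88%, against 7.22% of all genes) and none higher, up to 3 lower without control 1, Rb KO 5 or DKO 2. Of 16 apoptosis regulators 3 were lower (18.75%). Pmaip1, the BH3-only gene Noxa, is in both lists and was at 9.86, 9.68, 9.98, 9.54 and 9.89 in Rb KO and 9.21, 9.37, 8.66, 8.85 and 8.80 in DKO (−0.81 ± 0.14, adjusted p = 0.00133). The arrays of both groups were apart, and the controls (8.92 to 9.46) lay with DKO. Bid, which links death receptors to mitochondria, fell by 0.54 ± 0.08 (adjusted p = 0.000312), from 8.91 to 9.14 in Rb KO to 8.29 to 8.61 in DKO.

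Stem cell and Wnt target genes were higher in DKO crypts, together with the crypt marker score. Of 18 stem cell markers 9 rose (50%, against 5.17% of all genes) and none fell, with a median of 0.30. Of 17 Wnt targets and Eph receptors 8 rose and 1, Ccnd1, fell (median 0.32). Axin2, a feedback inhibitor induced by Wnt, was at 9.44, 9.64, 9.52, 9.13 and 8.88 in Rb KO and 9.75, 9.75, 9.94, 10.23 and 10.17 in DKO (0.65 ± 0.15, adjusted p = 0.01). All DKO values were higher, and Rb KO 4 and 5 were the lowest. Fzd7, a Wnt receptor, was at 7.53, 7.22, 7.36, 7.36 and 7.22 in Rb KO and 8.04, 7.91, 7.96, 8.39 and 8.37 in DKO (0.80 ± 0.11, adjusted p = 0.000312).

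Ephb3, a receptor that places cells along the crypt, rose by 0.64 ± 0.13, the adhesion receptor gene Cd44 by 0.74 ± 0.16, Rgmb, a BMP co-receptor, by 0.56 ± 0.12, Slc12a2, an ion transporter of the crypt base, by 0.52 ± 0.11 and Tnfrsf19, the Wnt target Troy, by 0.49 ± 0.11. Cd44 overlapped, since DKO 2 (10.12) lay below Rb KO 2 (10.26). The defining stem cell genes did not pass. Lgr5, picked after its values were seen, was at 8.96, 8.90, 8.80, 7.99 and 8.26 in Rb KO and 7.80, 8.23, 8.87, 9.10 and 9.04 in DKO (0.03 ± 0.28, adjusted p = 0.964, 95% interval −0.56 to 0.62). Both groups spread over more than 0.9. Olfm4, picked in the same way, differed by 0.10 ± 0.09 (adjusted p = 0.494, 95% interval −0.08 to 0.29).

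Both counts moved with Rb KO 4 and 5 and with the crypt marker score, which these markers partly form. The stem cell count was 5 without Rb KO 4 or without Rb KO 5, 4 without DKO 3, 1 without Rb KO 4 and 5 together and 4 with the clock index as a covariate. The removal of both arrays also leaves fewer arrays in the fit, and the list's median was then 0.26, against 0.30 with all arrays. With the crypt marker score none of the 18 rose and 1 fell, Lgr5, at −0.76 (adjusted p = 0.0156). Lgr5 is itself a member of the score, so that value is no separate measure of it. The Wnt count was 4 without Rb KO 4 and 5, at a median of 0.29 against 0.32, and 2 rose and 2 fell with the score. Axin2 (0.44), Rgmb (0.44) and Tnfrsf19 (0.45) lost the call without Rb KO 4 and 5 (adjusted p 0.0506 to 0.0762), and they, Slc12a2, Ephb3 and Cd44 lost it with the score (0.0624 to 0.174). In the fit over all 30 arrays Slc12a2 lost it too (0.463). The part of crypt content in the result was not tested beyond these values. Fzd7 kept its call in both.

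Among the differentiated cells, Paneth cell genes had 4 of 11 higher (median 0.32), none with the crypt marker score and 1 in the fit over all 30 arrays. Lyz1, Ang4 and Itln1 are among the 9 genes that form this score, so it is no separate check on Paneth cell genes. Ang4, an antimicrobial angiogenin, was at 14.01, 14.02, 14.10, 13.50 and 13.39 in Rb KO and 14.35, 14.32, 14.43, 14.43 and 14.36 in DKO (0.57 ± 0.12, adjusted p = 0.00418). The groups did not overlap, with Rb KO 4 and 5 again the lowest. Clps, a colipase also made by the exocrine pancreas, rose by 0.71 ± 0.14 and the lectin gene Itln1 by 0.32 ± 0.07. In the fit over all 30 arrays Ang4 (0.341) and Itln1 (0.683) lost the call. Of 11 exocrine pancreas genes Clps alone passed the test, but all 11 differences were above 0, with a median of 1.19. The list's mean level varied widely between arrays, from 7.60 to 9.51 in Rb KO against 7.40 to 11.48 in DKO.

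Of 18 goblet cell genes 2 fell (11.1%, against 7.22% of all genes) and 1 rose (5.56%, against 5.17%), shares near those of all genes. None rose without Rb KO 1 or 3 or DKO 4 and 2 rose without control 1 or 5, while 3 fell with the crypt marker score and 1 in the fit over all 30 arrays. Tff3, a mucus peptide, was at 14.68, 14.68, 14.65, 14.59 and 14.62 in Rb KO and 14.49, 14.51, 14.44, 14.48 and 14.49 in DKO, a small difference without overlap (−0.16 ± 0.04, adjusted p = 0.0166). Gfi1, a regulator of secretory cells, fell by 0.25 ± 0.05 (adjusted p = 0.0756 in the fit over all 30 arrays). By limma none of 25 enteroendocrine and none of 13 tuft cell genes passed, with 4 and 6 at an unadjusted p below 0.05. Without DKO 1 or 5, control 4 or DKO 2 some tuft genes passed, up to 4 of 13, and 2 were higher with the crypt marker score. Of 33 enterocyte genes 2 were higher (6.06%) and none lower, and none were higher without Rb KO 1, 2 or 4 or DKO 1. With the villus marker score as a covariate 6 were lower and 3 higher. The villus marker score of Rb KO (−0.13 to 0.50) overlapped that of DKO (−0.18 to 0.34).

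Reg4, a lectin of secretory cells, was the 1 member of 11 antimicrobial and defence genes that rose (0.74 ± 0.13, adjusted p = 0.0015). Retnlb, the goblet cell protein RELM beta, was at 6.02, 5.01, 6.62, 5.21 and 4.78 in Rb KO and 5.52, 13.80, 14.35, 14.53 and 6.09 in DKO. It was thus high on 3 DKO arrays and low on the other 2, and also high on controls 3 (13.71) and 5 (13.23). The difference of 5.33 ± 1.92 did not pass (adjusted p = 0.0831), and did without DKO 1 (0.0319) or DKO 5 (0.0399).

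Lipid genes changed in both directions. Cholesterol synthesis and uptake had 7 of 20 lower and none higher (median −0.25). Mvd, of the mevalonate pathway, was at 8.56, 8.59, 8.53, 9.12 and 8.62 in Rb KO and 8.17, 7.82, 7.99, 8.07 and 8.12 in DKO, without overlap (−0.65 ± 0.11, adjusted p = 0.00159). Idi1 and Fdps, of the same pathway, fell by 0.49 ± 0.11 and 0.47 ± 0.11, and both lost the call without Rb KO 4 and 5 (0.0559 and 0.08) and with the crypt marker score (0.115 and 0.147), and Fdps also in the fit over all 30 arrays (0.0947). The list's count was 3 without Rb KO 4, 4 without Rb KO 5 or DKO 5, 4 with the clock index as a covariate, 1 without Rb KO 4 and 5 together, 1 with the crypt marker score and 2 in the fit over all 30 arrays. Scores of Rb KO 4 and 5 were the highest of the group.

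Fatty acid oxidation and PPAR targets had 6 of 23 higher (26.1%) and none lower (median 0.12). The count was 3 without Rb KO 4 and 5, and 4 with the crypt marker score or the clock index in the model. Acot1, an acyl-CoA thioesterase, was at 7.95, 8.51, 7.66, 8.34 and 8.19 in Rb KO and 8.98, 9.85, 10.05, 9.41 and 8.92 in DKO (1.31 ± 0.23, adjusted p = 0.00186). Every DKO array was higher, and the controls (8.57 to 9.61) lay between or with DKO. Eci2 rose by 0.45 ± 0.07 and Acadl, a long-chain dehydrogenase, by 0.46 ± 0.10. Angptl4, a lipase inhibitor induced by PPARs, rose by 0.99 ± 0.21, with 1 of 2 probe sets in the other direction, and lost the call without Rb KO 4 and 5 (0.0529) and with the crypt marker score (0.0516). Of 17 glycolytic genes 3 rose (17.65%, against 5.17% of all genes) and none fell, with a median of −0.004 and 10 below 0. Leaving out control 1, 2, 4 or 5 or DKO 1, 2 or 5 singly, 1 was lower, and 2 were with the villus marker score as a covariate. Gapdh differed by 0.24 ± 0.05 (adjusted p = 0.00781) and the pyruvate kinase gene Pkm by 0.32 ± 0.09. Without Rb KO 1, 2, 3 or 4 or DKO 1 or 2, the number of glycolytic genes that rose was as low as 1 and Pkm lost its call (0.0558 to 0.0786). That number was also 1 with the clock index as a covariate.

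Several of the largest rises were in genes of signalling and the cell cycle that no list held. Rgcc, a regulator of the cell cycle first described as a response gene to complement, was at 7.22, 7.65, 6.97, 7.04 and 7.13 in Rb KO and 9.52, 9.63, 10.53, 10.30 and 9.71 in DKO. The level was 6.66-fold higher (2.74 ± 0.22, adjusted p = 2.89e-06), and controls (6.93 to 8.06) lay with Rb KO. Tgfbr2, the type II receptor of TGF-beta, was at 8.52, 8.22, 8.49, 8.48 and 8.08 in Rb KO and 9.57, 10.05, 10.12, 10.10 and 9.84 in DKO, 2.98-fold higher (1.58 ± 0.14, adjusted p = 6.18e-06). No array overlapped, and the controls (8.09 to 8.87) were again with Rb KO. Tlr1, a Toll-like receptor gene, rose by 1.81 ± 0.15 (adjusted p = 3.06e-06), from 6.50 to 7.24 in Rb KO to 8.48 to 9.01 in DKO. Tcf23, a basic helix-loop-helix factor gene, rose by 1.85 ± 0.21, from 6.64 to 7.53 in Rb KO to 8.40 to 9.73 in DKO. Pla2g5, a secreted phospholipase, rose by 1.72 ± 0.39 and lost the call without Rb KO 4 and 5 (0.0698) and with the crypt marker score (0.169).

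The BMP pathway, a signal that restrains stem cells, had 2 of 15 genes higher (13.3%, against 5.17% of all genes) and 3 lower (20%, against 7.22%). With the crypt marker score 1 was lower. Bmp4 was at 6.10, 5.75, 5.90, 5.84 and 5.94 in Rb KO and 7.24, 8.06, 8.67, 7.37 and 7.51 in DKO. The level was 3.64-fold higher without overlap (1.86 ± 0.21, adjusted p = 5.03e-05), and controls (5.62 to 6.10) matched Rb KO. Bmp4 is also a mesenchymal gene, and of the 17 markers of mesenchyme, muscle and endothelium it alone rose. Their mean level was 6.84 to 7.73 in Rb KO against 7.10 to 7.46 in DKO. Bmp2 was at 8.15, 8.04, 8.22, 7.82 and 8.05 in Rb KO and 7.07, 7.50, 7.15, 6.85 and 7.05 in DKO, a fall of 0.93 ± 0.13 (adjusted p = 0.000283). Both ligands were apart, in opposite directions. Id2, a target of BMP signals, rose by 0.52 ± 0.11 and the inhibitory Smad gene Smad7 fell by 0.33 ± 0.08, without a call with the crypt marker score (0.123) or in the fit over all 30 arrays (0.0822).

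Among the other large falls were Mreg, a gene of organelle transport, and Car4, a membrane carbonic anhydrase, with 5 and 4 control arrays nearer Rb KO. Mreg was at 9.60, 9.27, 9.26, 9.12 and 9.36 in Rb KO and 7.83, 7.81, 7.41, 8.21 and 8.48 in DKO (−1.37 ± 0.16, adjusted p = 5.88e-05). The groups did not overlap. Car4 was at 10.69, 10.90, 11.28, 11.28 and 11.91 in Rb KO and 9.81, 9.97, 9.85, 9.04 and 9.999 in DKO (−1.48 ± 0.33, adjusted p = 0.00765), and lost the call without Rb KO 4 and 5 (0.0603) and with the crypt marker score (0.139). Across the called genes, all 5 control arrays lay nearer the Rb KO mean than the DKO mean in 703 of 1802, of which 466 were lower in DKO and 237 higher. Over all genes tested this held for 2727 of 14548.

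**Figure D4:**
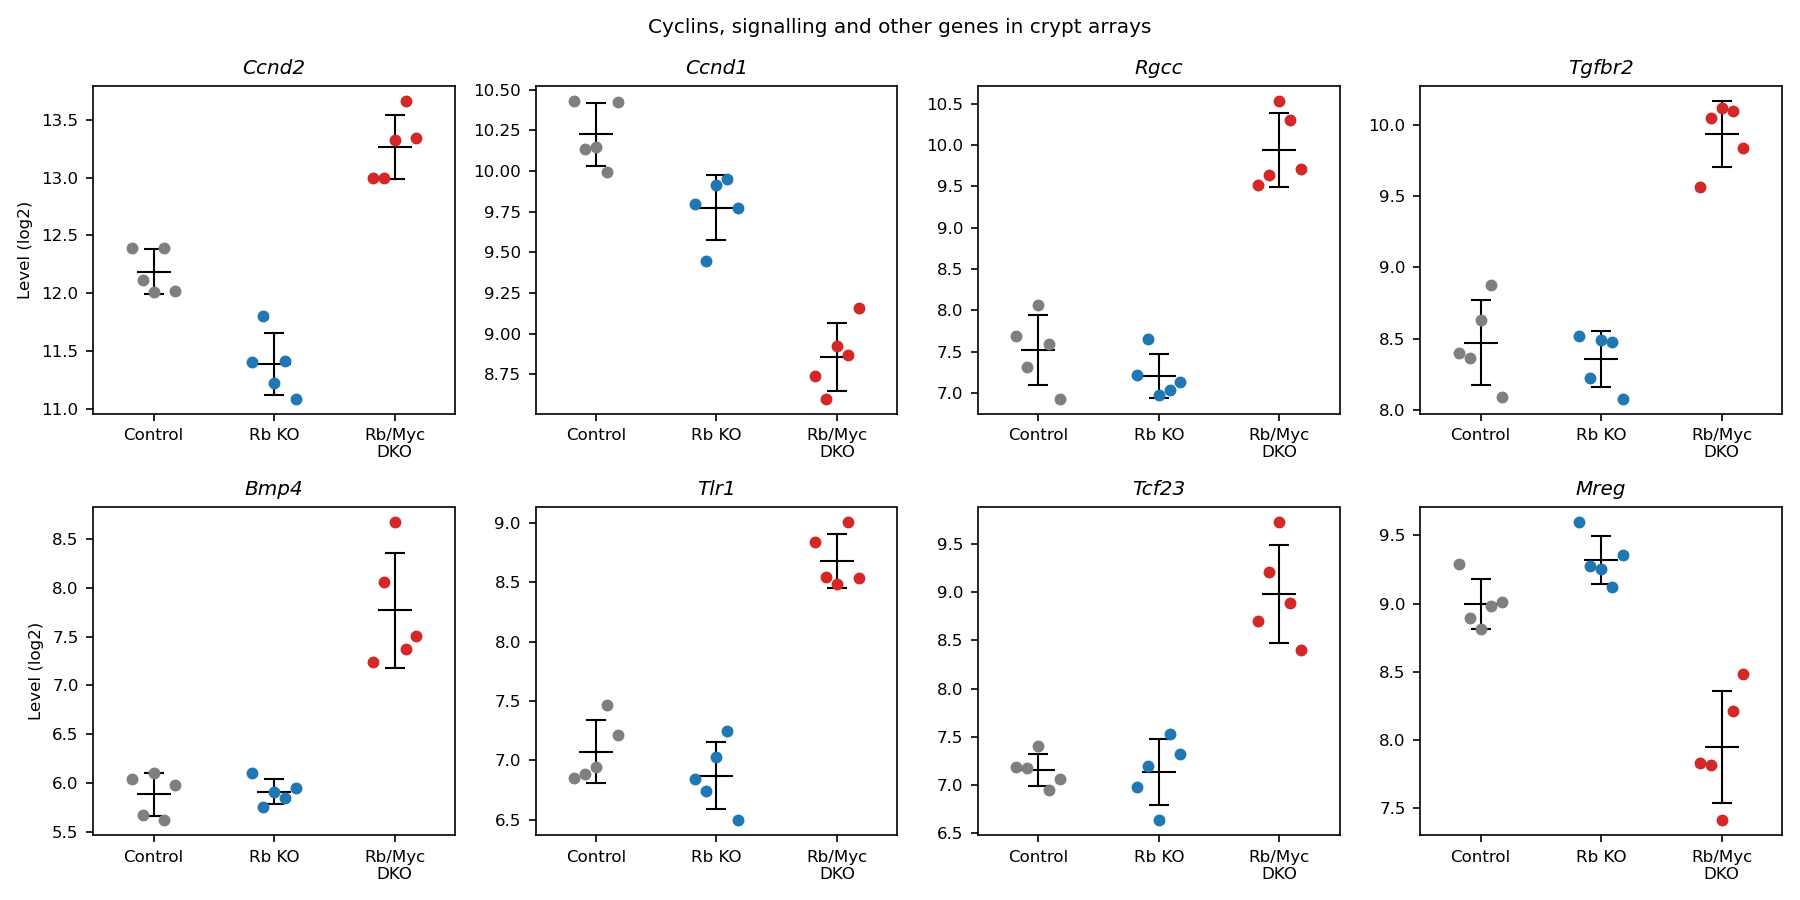
Log2 levels on each crypt array (points) with group mean and SD (bars, n = 5); the axes do not start at 0. Ccnd2, Rgcc, Tgfbr2, Bmp4, Tlr1 and Tcf23 were higher and Ccnd1 and Mreg lower on all 5 DKO arrays than on all 5 Rb KO arrays, and controls lay near Rb KO for all but the cyclins.

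Several other genes with large differences split the control group. Ceacam10, an adhesion family gene, fell by 2.96 ± 0.66, from 10.65, 10.51, 10.002, 9.77 and 9.15 in Rb KO to 7.01, 6.15, 5.58, 8.31 and 8.22 in DKO. The controls ran from 6.27 to 10.18, with 3 of 5 nearer Rb KO. Cd177 (−1.71 ± 0.50) and the desaturase gene Scd2 (−1.69 ± 0.53) also had controls on both sides. Cd177 lost the call in 7 of 15 removals of a single array (up to 0.0851) and Scd2 in 10 (up to 0.122), and without Rb KO 4 and 5 they stood at 0.0535 and 0.219. With the crypt marker score Scd2 stood at 0.176. Enpp3, a nucleotide pyrophosphatase, fell by 1.46 ± 0.24 with controls (7.58 to 8.49) near DKO. The C-reactive protein gene Crp rose by 1.52 ± 0.22, the lipase family gene Lipo3 by 1.42 ± 0.24 and the interferon-induced gene Ifitm1 by 1.44 ± 0.30. Ly96, the MD-2 partner of Toll-like receptor 4, fell by 1.34 ± 0.29 (adjusted p = 0.0576 with the crypt marker score).

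Control 1 alone lay nearer Rb KO in 631 genes, of which 80 were called and 12 of these differed at least 2-fold. The 80 are near the share of all genes called, 12.4%. Controls 2 to 5 each lay alone nearer Rb KO in 407, 311, 389 and 478 genes, of which 17, 20, 35 and 50 were called. The corresponding numbers at least 2-fold were 0 for control 2, 0 for control 3, 1 for control 4 and 1 for control 5. These 12 genes include Hddc3, a hydrolase, at 7.09, 6.86, 7.01, 7.19 and 6.85 in Rb KO and 9.76, 9.72, 10.53, 10.40 and 9.70 in DKO (3.02 ± 0.42, adjusted p = 0.000293). Control 1 was at 6.93 and controls 2 to 5 at 9.46 to 9.96. Trim30d, a TRIM family gene, had the largest fall of all (−5.47 ± 0.77), beside its relatives Trim34a (−1.76 ± 0.29, 1 of 2 probe sets in this direction) and Trim30a (−1.15 ± 0.23). The myosin gene Myo7a fell by 1.78 ± 0.33. The kinase gene Stk39 rose by 1.97 ± 0.46, the protease gene Prss23 by 1.85 ± 0.29 and Fah, of tyrosine breakdown, by 1.24 ± 0.18. Stk39 lost the call without Rb KO 4 and 5 (0.0644).

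Cdkn1b, the CDK inhibitor p27, belonged to the same 12 genes. It was at 9.04, 9.15, 9.28, 9.14 and 9.12 in Rb KO and 10.22, 10.44, 10.22, 10.35 and 10.36 in DKO (1.17 ± 0.19, adjusted p = 0.000913), with control 1 at 9.04 and controls 2 to 5 at 9.87 to 10.39. Of its 2 probe sets 1 went the other way. Nnt, the mitochondrial transhydrogenase, picked after its values were seen, rose by 1.24 ± 0.18, with control 1 (9.93) below the other controls (10.41 to 11.16). Chromosome 7 held 14 of the 62 genes called at least 2-fold (22.6%), against 8.09% of genes tested, and 7 of the 12 genes lie on it. A list of 9 genes that follow strain background, which was drawn up with these data known, had 4 members higher and 4 lower. The labels do not give the strain, and the part of genetic background in these differences was not tested.

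**Figure D5:**
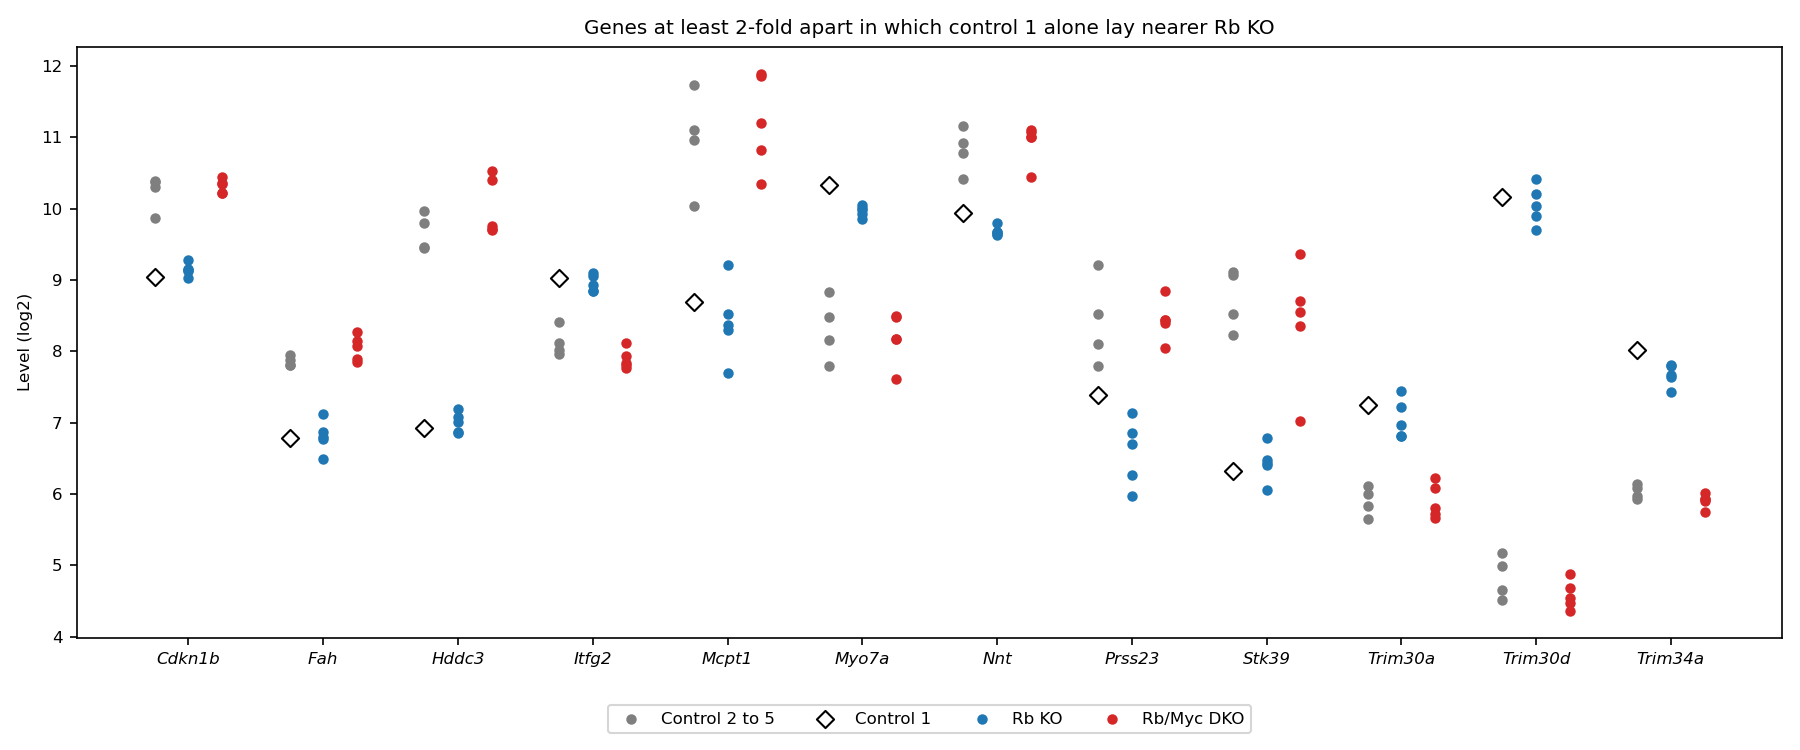
Log2 levels on each crypt array of the 12 genes at least 2-fold apart in which control 1 alone lay nearer the Rb KO mean. Open diamonds mark control 1, which lay nearer the mean of Rb KO (blue), while the other 4 controls (grey) lay nearer that of DKO (red). Itfg2, an integrin repeat gene, is shown because it is among the 12.

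Markers of immune cells were higher in places. Mast cell protease genes Mcpt1 and Mcpt2 were among the largest rises. Mcpt1, also among the 12 genes above, was at 9.21, 8.52, 8.31, 8.37 and 7.70 in Rb KO and 10.82, 11.20, 11.89, 11.86 and 10.35 in DKO, 6.98-fold higher (2.80 ± 0.47, adjusted p = 0.00107). The groups did not overlap, with control 1 at 8.69 and the other controls at 10.04 to 11.73. Mcpt2 rose by 2.58 ± 0.47 and the mast cell carboxypeptidase gene Cpa3 by 1.22 ± 0.27. Of 17 macrophage, dendritic and mast cell markers 4 rose (23.5%, against 5.17% of all genes). In that list 1 fell (5.88%, against 7.22%), Cd14, the endotoxin co-receptor gene (−1.04 ± 0.20). The list pools these cell types, so its count does not speak for each of them. The mean level of the 17 markers was 7.19 to 7.65 in Rb KO against 7.65 to 8.04 in DKO.

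T cell and intraepithelial lymphocyte markers had 3 of 20 higher (15%, median 0.23). Itgae, the integrin that holds these lymphocytes in the epithelium, was at 6.92, 6.91, 7.14, 6.84 and 7.33 in Rb KO and 7.72, 7.68, 7.97, 7.80 and 7.50 in DKO (0.71 ± 0.11, adjusted p = 0.000618). The groups did not overlap. Lat, a T cell receptor adaptor, rose by 0.32 ± 0.08, without a call with the crypt marker score (0.0938) or in the fit over all 30 arrays (0.123). The receptor chain gene Cd3d differed by 0.36 ± 0.11 and lost the call in 8 of 15 removals (up to 0.105), without Rb KO 4 and 5 (0.0709) and in the fit over all 30 arrays (0.163). The list's count was 5 without control 2 or DKO 5, 7 without Rb KO 5 and 7 with the villus marker score. Its mean level was 7.05 to 7.59 in Rb KO against 7.34 to 7.62 in DKO. B cell markers (1 of 10, or 10%) and class II antigen presentation genes (1 of 8, or 12.5%) had few members higher, against 5.17% of all genes, and none lower. Neither list had any higher without Rb KO 4 and 5. With the crypt marker score none of the B cell markers was higher and 3 of 10 were lower. The class II count was 2 without control 1 and none passed without Rb KO 1, 2, 4 or 5 or DKO 1, 2, 3 or 5, and the B cell count was 2 without control 1 or DKO 1. Interferon-stimulated genes had 4 of 30 higher (13.3%), with Rtp4 at 0.71 ± 0.14, Stat2 at 0.49 ± 0.10 and Oas1a at 0.40 ± 0.08, and 1 in the fit over all 30 arrays, where Stat2 (0.0693) and Oas1a (0.0609) lost the call.

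Among genes that respond to handling or stress, immediate early genes had 5 of 17 lower (29.4%, against 7.22% of all genes), including Klf6 (−0.46 ± 0.09). That count was 2 or 3 without Rb KO 1 or 3 or DKO 1, 2 or 3. With the crypt marker score 2 immediate early genes were lower. Heat shock chaperones had 3 of 13 lower (23.1%) and 6 without Rb KO 4 and 5. Hsp90aa1, the inducible HSP90, fell by 0.25 ± 0.04 (adjusted p = 0.0642 in the fit over all 30 arrays) and its activator gene Ahsa1 by 0.29 ± 0.06. Of 17 integrated stress response genes 1 fell (5.88%, below the 7.22% of all genes), the amino acid transporter gene Slc7a5 (−0.49 ± 0.11). In the same list 2 rose (11.8%, against 5.17% of all genes), and fewer did without Rb KO 1, 4 or 5 or DKO 1, 2 or 3. None of the 17 rose without Rb KO 4 and 5 together, where 2 fell, or with the crypt marker score, where 1 fell. Notch and lineage regulators had 2 of 18 lower (11.1%, against 7.22% of all genes), and 1 without Rb KO 3, DKO 1 or DKO 5. EGF receptors and ligands had 1 of 10 higher (10%, against 5.17%), and none passed without Rb KO 4, DKO 3 or DKO 4. Both counts are too small to set these lists apart from all genes. The 3′ minus 5′ reading of the Gapdh control probe sets, a measure of RNA integrity, was −0.267 ± 0.00935 (SD, n = 5) in Rb KO and −0.241 ± 0.0459 in DKO (exact permutation p = 0.254, two-sided). DKO 4 was the lowest DKO array and the other 4 lay above every Rb KO array, so that without DKO 4 the difference moved from 0.0265 to 0.0441 (exact permutation p = 0.00794, the smallest this test can give). That of Actb was 0.260 ± 0.0358 and 0.247 ± 0.0491 (exact permutation p = 0.690). Adjusted over both readings the values were 0.508 and 0.690.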

How the data were processed

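RNA of small-intestinal crypts was extracted with TRIzol and put on arrays as biotin-labelled product, per the labels. For each array the authors deposited log2 expression levels of 45101 probe sets. How the authors normalized and summarized them is not given in the sources used here. Crypt array medians were 6.67 to 6.73 and villus array medians 6.28 to 6.34, so villi entered no main test.

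Symbols came from the platform annotation (34958 probe sets with 1 symbol, 932 with several, 9211 with none). Each gene took its probe set with the highest mean over the 30 arrays, and of 18194 genes 14548 were tested, those whose mean exceeded 5.33 (percentile 30 of all probe sets). The 3 crypt groups (15 arrays) shared one linear model with no covariate, in limma 3.58.1 (R 4.3.3), at a Benjamini-Hochberg adjusted p of 0.05. On simulated data over these 14548 genes, with 100 changed by each fold, it recovered 88 of those changed 1.5-fold and 98 of those changed 2-fold, with 8 false calls. The simulated noise was normal and independent between genes and arrays, and far fewer genes were changed than were called here. These counts therefore need not hold for the real arrays.

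The 50 gene lists (1129 entries, 986 tested) and the genes to compare were chosen with earlier results of these data known. Genes named are Rb1, Myc, the Myc and Max network, the 15 largest differences in each direction among called genes with a proper symbol whose arrays do not overlap, and the 4 members of smallest p in each list, or fewer. Others are said to be picked after their values were seen. Alternatives were other probe set rules, filters, scalings, sets of arrays, variance models and thresholds, the replicate number as a block, sex, a villus marker score (6 of 8 markers measured) or a clock index in the model, and the removal of each array in turn. The crypt marker score as a covariate and leaving out Rb KO 4 and 5 together were added after seeing the data. Figures were drawn with matplotlib 3.10.9.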

Additional observations from a re-analysis of the deposited data

Results flagged for a closer look

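In each of 2 groups of 5 arrays for the 126 genes named, the arrays were checked for 1 apart from the rest, and 16 groups (6.35%) held an array whose gap to its nearest neighbour exceeded 0.71 of the group's range. Chance alone gives about 1 in 20 groups, close to this share. Rb KO array 4 was high in Mvd (9.12, others 8.53 to 8.62), Dhodh (8.79, others 8.54 to 8.59), Dctd (8.49, others 8.13 to 8.23) and Iars (10.64, others 10.36 to 10.44). Rb KO 5 was low in Ly96 (7.44, others 7.92 to 8.10) and Rb KO 2 high in Nnt (9.80, others 9.63 to 9.67).

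DKO array 1 was high in Ly96 (7.37, others 6.22 to 6.45) and low in Nnt (10.44, others 11.00 to 11.11). DKO 2 was high in Cox8a (14.52, others 14.42 to 14.44) and low in Itln1 (14.76, others 14.88 to 14.93) and Cd14 (7.32, others 7.96 to 8.21). DKO 3 was high in Mrps30 (10.39, others 10.19 to 10.25). DKO 4 was high in Lat (7.50, others 7.03 to 7.13) and low in Car4 (9.04, others 9.81 to 9.999). DKO 5 was high in Tomm20 (13.00, others 12.88 to 12.91) and low in Azin1 (11.82, others 11.95 to 11.98).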

How the results depend on the processing

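The 1802 called genes became 1171 (637 lower) with all 30 arrays in the fit, 745 (272 higher, 473 lower) at an adjusted p of 0.01, 125 (53 higher, 72 lower) by treat against a fold of 1.2, and 1135 (436 higher, 699 lower) without Rb KO 4 and 5 together. Without each array in turn the counts ran from 1287 to 1941, with 522 to 814 higher and 757 to 1140 lower, and the Myc difference from −1.73 to −1.46. The difference in the Gapdh 3′ to 5′ reading, 0.0265 with all arrays, ran from 0.0145 to 0.0441 and reached the higher value without DKO 4 (exact permutation p = 0.00794), and that of Actb ran from −0.0283 to 0.0032. Lgr5 turned from 0.03 to −0.76 (adjusted p = 0.0156) when the crypt marker score was added to the model. Lgr5 is among the 9 genes that form this score, whose mean was 0.13 in DKO and −0.17 in Rb KO. The adjusted value is therefore no separate measure of Lgr5. Same-numbered Rb KO and DKO arrays were no more alike than others. Their deviations from the group means correlated at −0.274 to 0.00644, against −0.241 to 0.295 for arrays of different numbers. So few pairs cannot settle whether the replicate numbers pair the samples. With the replicate block 1701 genes were called (702 higher, 999 lower). Of 126 genes named, 121 were called. Of these, 78 lost the call by treat against a fold of 1.2, 30 with all 30 arrays in the fit and 25 with the crypt marker score. The call was lost by 21 at an adjusted p of 0.01, 19 without Rb KO 4 and 5 and 13 without 1 of the 15 arrays. Array signal limits what can be said of genes below the level of 5.33, which were not tested.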
